A study of Mus musculus with 7 samples.

Results

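The genes examined were 8 that encode surface proteins by which a cell restrains the immune cells it meets: Cd47, Cd24a, Cd274, Pdcd1lg2, Pvr, Cd276, Cd200 and Nt5e. They were taken by name from the gene rows of the deposited count tables, which hold 24394 gene names in the first table and 13236 in the second. Pdcd1lg2 was read from the first table alone and was not analysed here in the second. RNA was profiled by 3' end mRNA sequencing of sorted cells from female BALB/c mice, with 1 library per group. The first table held 3 libraries negative for Ter119, CD45 and EpCAM, the surface markers of red cells, leukocytes and epithelium. All 3 were labelled as stroma without immune cells. NMF came from the normal mammary fat pad of untreated mice aged 8 weeks, and pCAF and sCAF were the podoplanin-positive and podoplanin-negative cancer-associated fibroblasts of tumours raised from 4T1-luc cells, a luciferase-marked mouse mammary carcinoma line. The second table held 4 libraries negative for Ter119 and CD45, from tumours raised with GFP-labelled 4T1 cells, and divided by GFP, which marks the injected cells, and by EpCAM. All 6 tumour libraries came from mice aged 12 weeks, 4 weeks after 100000 cells had been injected into the fat pad.

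These proteins act at the contact between a cell and its immune neighbours. CD47 binds SIRP-alpha on macrophages and holds back phagocytosis, and CD24 does so through Siglec-10 in humans and Siglec-G in mice. PD-L1 (Cd274) and PD-L2 (Pdcd1lg2) bind PD-1 on T cells. The poliovirus receptor PVR, also called CD155, binds the inhibitory receptor TIGIT and the activating receptor CD226. CD200 restrains myeloid cells through CD200R, B7-H3 (Cd276) is a B7-family protein that is widespread in tumours and their vessels, and CD73 (Nt5e) turns extracellular AMP into adenosine, which quiets T cells through its own receptors. Tumour cells, fibroblasts and endothelium can each carry several of these proteins.

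Library totals ran from 436051 counts in pCAF to 2590144 in sCAF, and from 1338608 to 2384264 in the second table. Levels are given as normalised CPM, which is counts scaled to a common library size (CPM) after TMM scaling within a table, and levels of the 2 tables are not compared with each other because they were scaled separately. The sCAF library went against its label: the 10 fibroblast markers summed to 265 CPM there, with Lum at 0 counts, against 63605 in pCAF and 38377 in NMF. Its 10 epithelial markers summed to 4045 CPM, against 97.2 and 196. Pdpn was also at 0 counts in sCAF, which goes with its sort as podoplanin-negative. The sCAF library is therefore named below by its label only, and pCAF versus NMF is the one comparison of the first table that does not rest on it. With a single library in every group, differences could not be set against a spread between replicates, and the 95% intervals given hold counting error alone. In such bulk libraries fewer cells of a type and less RNA per cell cannot be told apart. Adipocyte markers summed to 1937 CPM in NMF, of which Fabp4 1880, against 2.49 in pCAF. Schwann markers summed to 1089 CPM in NMF against 17.4 in pCAF, and endothelial markers to 2427 against 49.9. The fat pad and the tumours were also digested with different enzymes, and the mice differed in age, so a difference between NMF and a tumour library cannot be told apart from these.

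**Figure D1:**
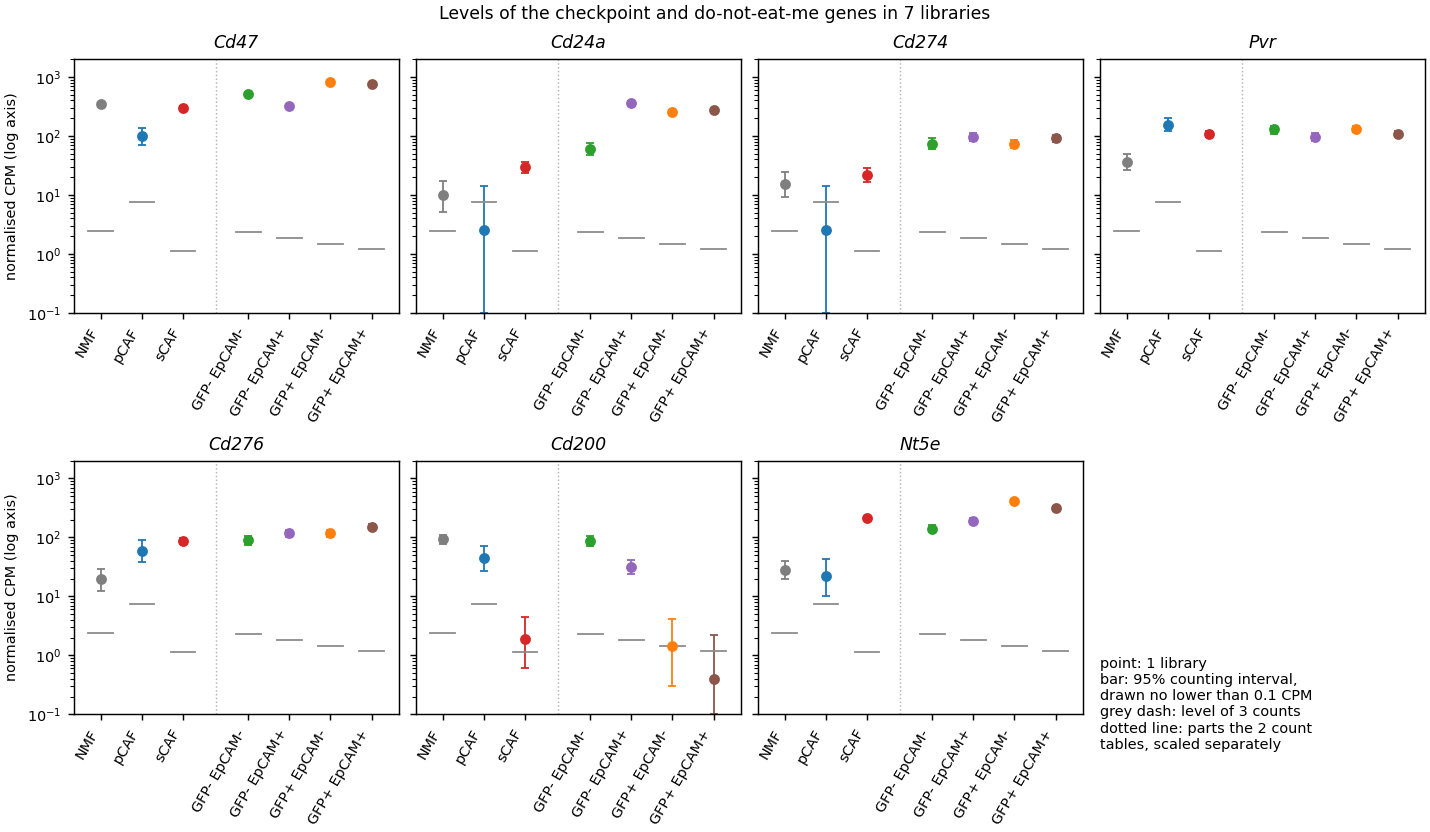
Normalised CPM (log axis) of the 7 genes with counts in each library, with 95% counting intervals and a grey dash at the level of 3 counts; the dotted line parts the count tables. Cd200 lies at or near the 3-count level in sCAF and in the GFP+ libraries, where Nt5e and Cd47 stand at 216 CPM or more.

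Ratios between libraries were compared in 7 pairs. Among genes with at least 20 counts over a pair, those whose whole counting interval lay beyond 2-fold were called, as higher or as lower. For pCAF against NMF, 6 of the 8 genes reached that count: Pvr was called higher, Cd47 lower and 4 neither, where 7.58% of all 8129 genes tested were called higher and 7.91% lower. For sCAF against NMF, 7 reached it: Nt5e, Pvr and Cd276 were called higher and Cd200 lower, against 15.9% and 17.3% of all genes (33.2% either way). For pCAF against sCAF, Cd200 was called higher and Cd47, Cd24a and Nt5e lower among 7, against 11.5% and 11.2% of all genes (22.7% either way). These comparisons share libraries, so their counts are not independent of each other.

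The GFP and EpCAM sorts were compared in the same way. EpCAM+ against EpCAM- cells gave no call among 6 of the genes in GFP+ cells, where 0.736% of all genes were called higher and 0.396% lower. In GFP- cells, Cd24a was called higher in EpCAM+ than in EpCAM- cells and none of 7 lower, against 7.33% and 12.7% of all genes. GFP+ against GFP- cells gave Cd24a and Nt5e higher and Cd200 lower among 7 in the EpCAM- cells, against 5.55% and 14.1% of all genes. In the EpCAM+ cells, GFP+ against GFP- gave Cd47 higher and Cd200 lower among 7, against 0.216% and 4.18% of all genes (4.39% either way). With 6 or 7 genes compared, these counts are too small to be read as shares, and the genes are described singly.

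**Figure D2:**
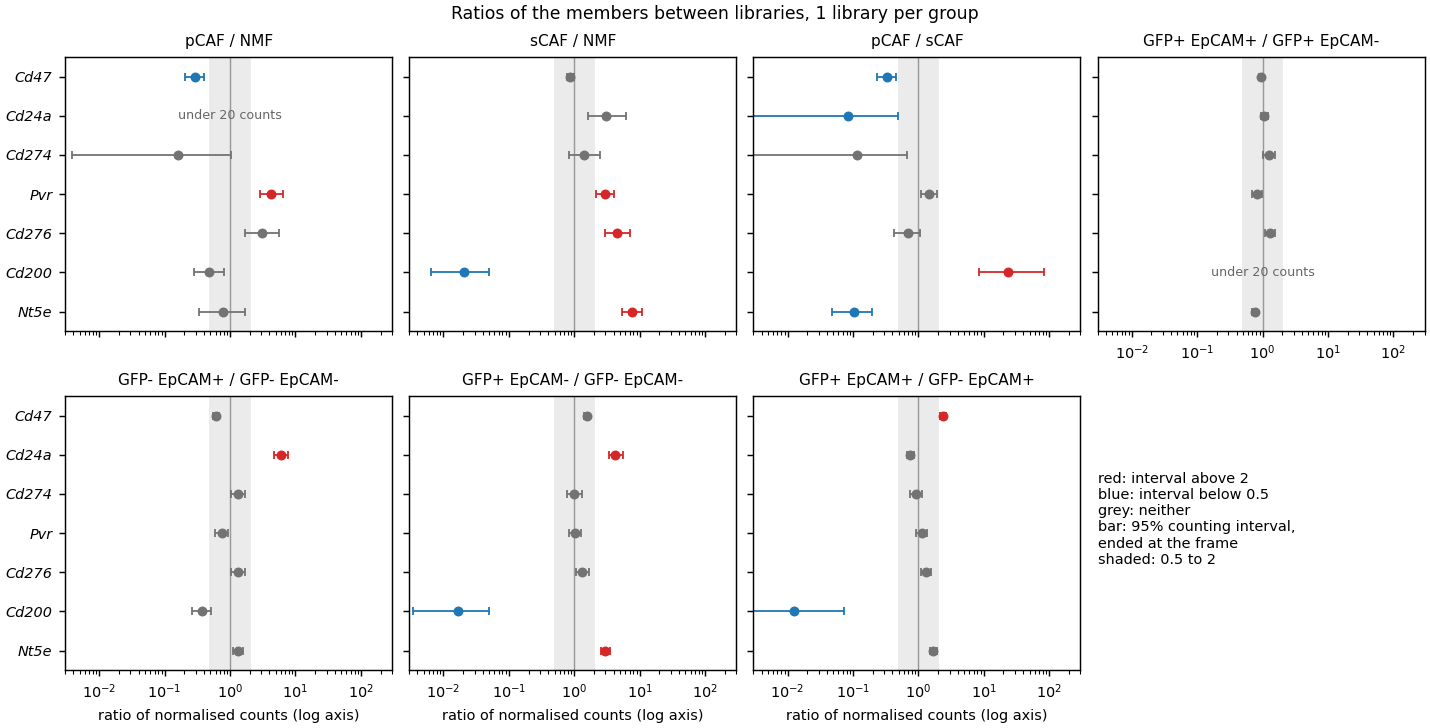
Ratio of normalised counts (log axis) for each gene in the 7 library pairs, with 95% counting intervals; red and blue mark intervals wholly above 2 or below 0.5, and bars that reach the frame go on beyond it. Cd200 was called lower in sCAF against NMF and in GFP+ against GFP- cells at either EpCAM status, and no gene was called in GFP+ EpCAM+ against GFP+ EpCAM- cells.

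Cd47, on the plus strand of chromosome 16 (49800533 to 49915010, GRCm38), had the lowest level of the first table in pCAF. It stood at 343 CPM in NMF (95% counting interval 311 to 378), 99.7 in pCAF (71.2 to 136, on 40 counts) and 301 in sCAF (280 to 322). Only pCAF stood clearly apart in that table, at 3.44-fold below NMF (2.49 to 4.89) and 3.02-fold below sCAF (2.19 to 4.25), the second of which lost its call when DESeq2 size factors were used. The sCAF level lay within 2-fold of NMF, at a ratio of 0.876 (0.777 to 0.987). Among the GFP and EpCAM sorts Cd47 stood at 521 CPM in GFP- EpCAM-, 319 in GFP- EpCAM+, 814 in GFP+ EpCAM- and 765 in GFP+ EpCAM+ cells. Both GFP+ libraries were above both GFP- libraries, and the GFP+ libraries did not differ beyond counting error from each other (1.06-fold, 0.996 to 1.14). The GFP ratio was 1.56 (1.43 to 1.71) in EpCAM- cells and 2.39 (2.17 to 2.64) in EpCAM+ cells, the only one of the pair called. The former was 0.652 times the latter (0.571 to 0.744).

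The promoter of Cd47 is shown because its level divided with GFP, as did those of Nt5e and Cd200, whose promoters follow. Each is a RefSeq window on GRCm38.p6 from 250 bases before the transcript start to 50 bases after it (the starts used for Cd47 and Nt5e lie within the annotated genes), printed 5' to 3' on the gene's strand, with capitals for matches on either strand to ACGTG, the core of hypoxia response elements, or to a loose NF-kB site (GGG, any 5 bases, CC). The Cd47 window is chr16:49855404-49855703 on the plus strand.
Cd47: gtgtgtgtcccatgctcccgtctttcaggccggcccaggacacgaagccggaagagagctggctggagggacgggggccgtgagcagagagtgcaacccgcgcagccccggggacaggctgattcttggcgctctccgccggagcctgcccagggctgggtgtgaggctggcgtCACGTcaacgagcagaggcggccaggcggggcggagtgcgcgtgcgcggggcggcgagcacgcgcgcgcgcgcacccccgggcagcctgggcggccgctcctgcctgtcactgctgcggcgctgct

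Cd24a, on the plus strand of chromosome 10 (43578284 to 43584265), was sparse in the first table. It had 12 counts in NMF (9.74 CPM), 1 in pCAF (2.49) and 78 in sCAF (29.4). The sCAF level was 3.02-fold that of NMF (1.63 to 6.09), which met no call, and pCAF was 11.8-fold below sCAF (2.05 to 472), a call that rests on 1 count and was lost with DESeq2 size factors and with factors from those 2 libraries alone. In the second table Cd24a stood at 59.8 CPM in GFP- EpCAM- cells (47.2 to 74.8), 360 in GFP- EpCAM+ (332 to 391), 255 in GFP+ EpCAM- (233 to 277) and 271 in GFP+ EpCAM+ (251 to 292). The GFP- EpCAM- library was the low one, and the other 3 lay within 2-fold of each other. Within GFP- cells the EpCAM+ library was 6.02-fold higher (4.74 to 7.74), whereas within GFP+ cells the ratio was 1.06 (0.949 to 1.20). The GFP ratio of Cd24a was 4.26 (3.35 to 5.48) in EpCAM- cells and 0.752 (0.673 to 0.842) in EpCAM+ cells.

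The summed epithelial markers were lowest in the library of each table where Cd24a was lowest, but single markers did not all follow it. Epcam, Cldn7 and Krt5 stood lower in GFP+ EpCAM- (26.0, 4.81 and 0 CPM) than in GFP- EpCAM- cells (35.7, 12.4 and 10.9). The other markers of the list stood higher there, from Cdh1 at 79.8 against 69.9 CPM to Krt18 at 1983 against 483. All 10 markers of that list had over 3 counts in GFP- EpCAM-, where they summed to 1096 CPM, against 12224 in GFP- EpCAM+ (10 of 10), 3271 in GFP+ EpCAM- (9 of 10, Krt5 at 0) and 6518 in GFP+ EpCAM+ (10 of 10). In the first table they summed to 196 CPM in NMF (7 of 10), 97.2 in pCAF (3 of 10, with Epcam, Cdh1, Cldn7, Krt14 and Krt5 at 0) and 4045 in sCAF (9 of 10). The part of epithelial or tumour cells in the Cd24a levels was not tested.

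The thrombospondin gene Thbs1, whose product also binds CD47, was the member of the phagocytosis list with the largest ratio in pCAF against NMF. It stood at 26.8 CPM in NMF, 429 in pCAF and 229 in sCAF, which is 16.0-fold higher in pCAF (10.98 to 23.99) and 8.56-fold higher in sCAF (6.03 to 12.6) than in NMF. That list held 15 genes linked to engulfment, for signals on a cell and for receptors that read them. In pCAF against NMF 2 of the 13 tested were called higher and 3 lower (median log2 ratio -0.20, against -0.20 for all genes). Over all genes 7.58% were called higher and 7.91% lower. B2m, the class I light chain, was 3.95-fold higher (3.65 to 4.28), and the bridging ligand Gas6 and its receptor Axl were 3.46-fold (2.84 to 4.24) and 2.39-fold lower (2.07 to 2.78). Qpct, a glutaminyl cyclase gene related to the Qpctl enzyme that modifies CD47, was 11.7-fold lower (5.61 to 29.5).

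In sCAF against NMF 3 of 14 phagocytosis genes were called higher and 5 lower (median -0.14, all genes 0.17), with B2m 8.53-fold (8.03 to 9.06) and the class I gene H2-K1 2.26-fold higher (2.07 to 2.47). Lrp1, which encodes the receptor that reads surface calreticulin as an eat-me mark, was 4.45-fold lower (4.09 to 4.84), Axl 4.04-fold (3.71 to 4.41), Gas6 846-fold (289 to 4109, on 3 counts in sCAF) and Qpct 543-fold (96.6 to 21531, on 1 count). In pCAF against sCAF the split was 3 higher and 3 lower of 12 (median 0.22, all genes -0.44). Of all genes, 15.9% and 17.3% were called higher and lower in sCAF against NMF, and 11.5% and 11.2% in pCAF against sCAF. Among the GFP and EpCAM sorts the calls were 0 of 12 for EpCAM in GFP+ cells (median -0.11) and 1 higher and 1 lower of 12 for EpCAM in GFP- cells (median 0.63). For GFP they were 2 higher and 1 lower of 13 in EpCAM- cells (median 0.095) and 1 lower of 13 in EpCAM+ cells (median -0.0013). All genes gave 0.736%, 7.33%, 5.55% and 0.216% higher in these sort pairs as listed, and 0.396%, 12.7%, 14.1% and 4.18% lower. Their medians lay between 0.0054 and 0.033. Lrp1 and Axl were 5.65-fold (4.53 to 7.12) and 3.39-fold higher (2.92 to 3.96) in GFP+ than in GFP- EpCAM- cells, and Gas6 was 105-fold lower (18.2 to 4214, on 1 count).

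Cd274, which encodes PD-L1, lies on the plus strand of chromosome 19 (29367455 to 29388095). It had 19 counts in NMF (15.4 CPM, 9.29 to 24.1), 1 in pCAF (2.49, 0.0631 to 13.9) and 58 in sCAF (21.9, 16.6 to 28.2). No pair of these met a call. The ratio of pCAF to NMF was 0.162 with an interval of 0.00389 to 1.02, and that of sCAF to NMF 1.42 (0.831 to 2.52), so a difference of pCAF from NMF was not resolved at the depth of pCAF, in which 3 counts are 7.48 CPM. Cd274 in the second table was the most even of the genes together with Pvr, at 73.8 CPM in GFP- EpCAM- (59.7 to 90.2), 97.3 in GFP- EpCAM+ (82.8 to 114), 73.5 in GFP+ EpCAM- (62.3 to 86.1) and 90.7 in GFP+ EpCAM+ (79.2 to 103). Ranked by level, no adjacent libraries differed beyond counting error, although GFP- EpCAM+ was 1.32-fold above GFP- EpCAM- (1.02 to 1.72). The GFP ratio was 0.996 (0.766 to 1.30) in EpCAM- and 0.932 (0.757 to 1.15) in EpCAM+ cells, intervals that leave out a 2-fold difference either way, and both ratios lay above 1 with total counts (log2 0.12 and 0.027).

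The 6 leukocyte markers read in the second table summed to 602 CPM in GFP- EpCAM- (6 of 6 over 3 counts, Ptprc at 29 counts), 66.7 in GFP- EpCAM+ (5 of 6), 2.40 in GFP+ EpCAM- (1 of 6) and 10.9 in GFP+ EpCAM+ (3 of 6), and Ptprc, which encodes CD45 itself, was at 0 in both GFP+ libraries. Macrophage markers summed to 427, 206, 54.3 and 63.7 CPM in the same order, with 7, 6, 3 and 6 of 7 markers over 3 counts. Of these sums Cd68 alone was 72.3, 38.6, 47.1 and 39.1 CPM, which is most of the sum in both GFP+ libraries. In the first table Ptprc had 0 counts in pCAF and sCAF and 1 in NMF. The part of leukocytes in the Cd274 levels was not tested.

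**Figure D3:**
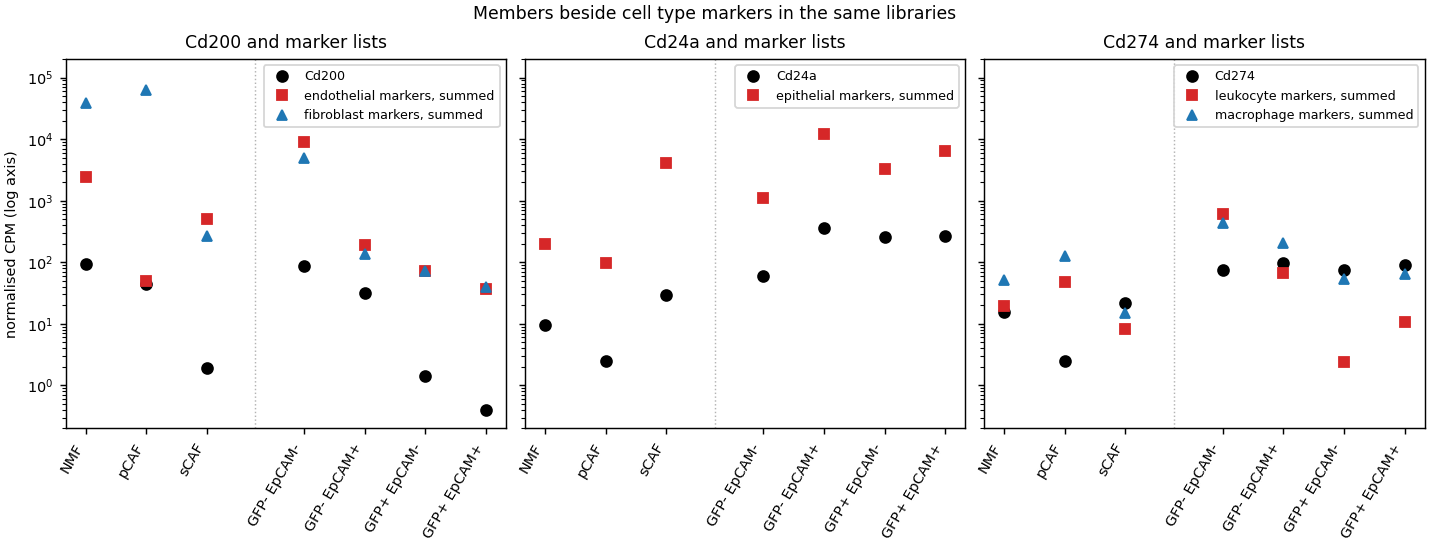
Normalised CPM (log axis) of Cd200, Cd24a and Cd274 (black) beside the summed level of cell type marker lists in the same libraries (red and blue). Across the GFP and EpCAM sorts Cd274 lay at 73.5 to 97.3 CPM, leukocyte markers at 2.40 to 602 and macrophage markers at 54.3 to 427. Within the macrophage sums Cd68 alone lay at 38.6 to 72.3 CPM. The part of these cells in the Cd274 levels was not tested.

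The list of genes that act on PD-L1 held 19 genes of interferon reception, transcription and PD-L1 stability, all of which were tested. In pCAF against NMF 1 was called higher and 0 lower (median -0.54, all genes -0.20): Hif1a, the oxygen-regulated transcription factor, at 8.51-fold (5.73 to 12.9). In sCAF against NMF 3 were higher and 1 lower (median -0.060, all genes 0.17). Irf1, the interferon-induced factor that drives Cd274, was 2.45-fold (2.06 to 2.92), the interferon receptor kinase gene Jak2 8.84-fold (6.48 to 12.4) and Cmtm4, whose product holds PD-L1 at the surface, 3.74-fold higher (2.56 to 5.67), and the interferon-gamma receptor chain Ifngr1 was 3.04-fold lower (2.39 to 3.88). In pCAF against sCAF 1 was higher, Hif1a at 18.9-fold (12.7 to 28.8), and 4 were lower (median -0.50), among them Jak2 at 5.04-fold (3.36 to 7.91) and Myc at 4.95-fold (3.02 to 8.72). Over all genes 7.58%, 15.9% and 11.5% were called higher in these pairs as listed, and 7.91%, 17.3% and 11.2% lower.

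In the second table no gene of the PD-L1 list was called for EpCAM in GFP+ cells (median 0.14) or for GFP in EpCAM+ cells (median 0.23). Hif1a was 3.12-fold lower (2.41 to 4.08) in EpCAM+ than in EpCAM- GFP- cells (1 of 19, median -0.037), and the kinase gene Jak1 was 3.73-fold lower (3.06 to 4.56) in the GFP+ than in the GFP- EpCAM- library (1 of 19, median 0.0087). Of all genes, 0.736%, 0.216%, 7.33% and 5.55% were called higher in these pairs as listed, and 0.396%, 4.18%, 12.7% and 14.1% lower. Pdcd1lg2, for PD-L2, lies beside Cd274 on chromosome 19 (29410919 to 29471161, plus strand). It had 0 counts in each library of the first table, where 3 counts would be 1.13 CPM in sCAF, 2.44 in NMF and 7.48 in pCAF and the upper 95% counting limits are 1.39, 2.99 and 9.20. At that limit no ratio was taken. Transcripts of the opposite strand are annotated across Cd274, Pdcd1lg2, Pvr and Cd276, and the sources used here do not give whether strand was used in counting.

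Pvr (chromosome 7, 19903578 to 19921160, minus strand) was the gene called higher in both pCAF and sCAF than in NMF. It stood at 36.5 CPM in NMF (26.6 to 48.9), 155 in pCAF (118 to 198) and 107 in sCAF (94.9 to 120). pCAF was 4.23-fold (2.84 to 6.36) and sCAF 2.93-fold (2.13 to 4.11) above the NMF library that they share as control. pCAF and sCAF lay closer together, at a ratio of 1.44 (1.08 to 1.91). Among the GFP and EpCAM sorts Pvr was even: 128 CPM in GFP- EpCAM- (109 to 149), 96.1 in GFP- EpCAM+ (81.6 to 112), 132 in GFP+ EpCAM- (117 to 148) and 108 in GFP+ EpCAM+ (95.1 to 121). Ranked by level, no adjacent libraries differed beyond counting error, although the EpCAM+ library was below the EpCAM- library at a ratio of 0.749 (0.598 to 0.938) in GFP- and 0.817 (0.688 to 0.971) in GFP+ cells. The ratio between GFP+ and GFP- was 1.03 (0.844 to 1.25) in EpCAM- and 1.12 (0.916 to 1.37) in EpCAM+ cells, the former below 1 with DESeq2 size factors (log2 -0.019).

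Of 15 genes for receptors of these and related ligands, 9 had 0 counts across pCAF, sCAF and NMF, among them Pdcd1, which encodes PD-1, and Cd226. Tigit had 7 counts in sCAF, 2 in GFP+ EpCAM- and 5 in GFP+ EpCAM+ cells and 0 in the other 4 libraries. Havcr2, which encodes TIM-3, had 0 counts in the first table and 20, 11, 31 and 26 in GFP- EpCAM-, GFP- EpCAM+, GFP+ EpCAM- and GFP+ EpCAM+ cells. Only Sirpa, the CD47 receptor, and Rgmb, which binds PD-L2, reached 20 counts over a pair in the first table. The level of Sirpa was 169 CPM in NMF, 79.8 in pCAF and 24.5 in sCAF, and it was 6.90-fold lower in sCAF than in NMF (5.20 to 9.26) and 3.26-fold higher in pCAF than in sCAF (2.06 to 5.05). Rgmb was 11.9-fold lower in pCAF (3.17 to 100.01, on 2 counts) and 3.84-fold lower in sCAF (2.58 to 5.77) than in NMF.

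Over the receptor list as a whole, pCAF against NMF had 1 of 2 called lower (median -2.33), sCAF against NMF 2 of 2 lower (median -2.36) and pCAF against sCAF 1 of 2 higher (median 0.036). All genes gave 7.58%, 15.9% and 11.5% higher in these pairs, and 7.91%, 17.3% and 11.2% lower. Of the second table's receptors 0 of 3 were called for EpCAM in GFP+ cells (median -0.51), 0 of 3 for GFP in EpCAM- cells (median -0.061) and 0 of 3 for GFP in EpCAM+ cells (median 0.31). In GFP- cells 1 of 4 was lower in EpCAM+ than in EpCAM- cells (median -1.30): Lag3, for a checkpoint receptor on T cells, 11.4-fold (2.74 to 102, on 2 counts against 18). Over all genes 0.736%, 5.55%, 0.216% and 7.33% were called higher in these pairs as listed, and 0.396%, 14.1%, 4.18% and 12.7% lower. Cd200r1, the receptor of CD200, had 3 counts in pCAF, 9 in GFP- EpCAM- and 0 in the other 5 libraries.

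Cd276, the B7-H3 gene (chromosome 9, 58524298 to 58555437, minus strand), was lowest in NMF. It stood at 19.5 CPM in NMF (12.5 to 29.0), 59.8 in pCAF (38.3 to 89.0) and 87.4 in sCAF (76.5 to 99.4). sCAF was 4.49-fold above NMF (2.94 to 7.14). pCAF was at a ratio of 3.07 with an interval of 1.67 to 5.65, which reaches below 2 and met no call on 24 counts in each library. Across the sorts by GFP and EpCAM it stood at 89.3 CPM in GFP- EpCAM- (73.8 to 107), 117 in GFP- EpCAM+ (101 to 135), 117 in GFP+ EpCAM- (103 to 133) and 152 in GFP+ EpCAM+ (137 to 168). The double-positive cells were highest and the double-negative cells lowest, and each step by 1 marker was within 2-fold, with ratios of 1.30 to 1.31.

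Of 19 other checkpoint ligand genes, 8 to 11 could be tested in a comparison. In pCAF against NMF 1 of 10 was called higher and 0 lower (median -0.35, all genes -0.20): Pvrl2, the older symbol of nectin-2, a relative of PVR that binds CD226 and, more weakly, TIGIT. It was 3.66-fold higher (2.44 to 5.51), from 38.2 to 140 CPM. In sCAF against NMF 0 of 11 were higher and 5 lower (median -1.44, all genes 0.17), among them 4632428N05Rik, the older symbol of the VISTA gene, 4.12-fold (2.44 to 7.15), Fgl2 140-fold (24.3 to 5616, on 1 count), Pvrl3 4.31-fold (2.14 to 9.13) and Icosl 28.0-fold (7.01 to 244, on 2 counts). In pCAF against sCAF 1 of 9 was higher (median 1.14), Fgl2 at 179-fold (29.4 to 7314). Of all genes, 7.58%, 15.9% and 11.5% were called higher in these pairs as listed, and 7.91%, 17.3% and 11.2% lower. Cd80 and Cd86, whose products bind CD28 and CTLA-4, and Cd70, the ligand of CD27, had 3 counts or fewer in every library of the first table.

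Among the GFP and EpCAM sorts, lower calls outnumbered higher ones over all genes in every pair but EpCAM in GFP+ cells. EpCAM gave 0 higher and 1 lower of 8 in GFP+ cells (median -0.047), namely Pvrl3 at 5.96-fold (2.88 to 13.9), and 1 higher and 2 lower of 11 in GFP- cells (median -0.55), with Pvrl4 14.2-fold higher (3.65 to 122, on 36 counts against 2). GFP gave 0 higher and 3 lower of 10 in EpCAM- cells (median -1.04) and 0 higher and 3 lower of 9 in EpCAM+ cells (median -0.84). All genes gave 0.736%, 7.33%, 5.55% and 0.216% higher in these pairs as listed, and 0.396%, 12.7%, 14.1% and 4.18% lower. Ceacam1, a ligand of TIM-3, had 65 and 67 counts in the GFP- libraries and 0 in both GFP+ libraries. With the empty library set to 3 counts, it was 35.0-fold lower in GFP+ EpCAM- and 33.9-fold lower in GFP+ EpCAM+ cells. H2-T23, the ligand of the NKG2A receptor, was 3.19-fold lower (2.64 to 3.87) in GFP+ than in GFP- EpCAM+ cells.

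Cd200, on the minus strand of chromosome 16 (45382135 to 45409053), divided the libraries most sharply of the 8 genes. It had 114 counts in NMF (92.6 CPM, 76.3 to 111), 18 in pCAF (44.9, 26.6 to 70.9) and 5 in sCAF (1.88, 0.612 to 4.40). It was 49.1-fold lower in sCAF than in NMF (20.4 to 154) and 23.8-fold higher in pCAF than in sCAF (8.52 to 82.1), while pCAF against NMF, at a ratio of 0.485 (0.277 to 0.801), met no call. In the second table it stood at 86.2 CPM in GFP- EpCAM- (70.9 to 104), 31.8 in GFP- EpCAM+ (23.8 to 41.7), 1.44 in GFP+ EpCAM- (3 counts) and 0.403 in GFP+ EpCAM+ (1 count). Both GFP+ libraries were at or below 3 counts and both GFP- libraries well above. The GFP+ cells were lower at a ratio of 0.0167 (0.0034 to 0.0501) in EpCAM- and 0.0127 (0.000315 to 0.0737) in EpCAM+ cells. The EpCAM+ GFP- cells were 2.71-fold below the EpCAM- cells (1.93 to 3.84), which was called only with DESeq2 size factors.

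Markers of endothelium and fibroblasts, which can both carry CD200, stood at different levels in these libraries. The 8 endothelial markers summed to 8869 CPM in GFP- EpCAM- (8 of 8 over 3 counts), 193 in GFP- EpCAM+, 71.1 in GFP+ EpCAM- and 37.5 in GFP+ EpCAM+ (7 of 8 in each), and the 10 fibroblast markers to 4879 (8 of 10), 138, 73.0 and 40.3 (6 of 10 in each). The fibroblast marker Pdgfra went the other way, at 1.55, 6.12, 34.1 and 14.9 CPM in that order. In the first table the endothelial sum was 2427 CPM in NMF (8 of 8), 496 in sCAF (8 of 8) and 49.9 in pCAF (2 of 8, with Pecam1, Cdh5, Emcn, Esam and Tie1 at 0). Among the other markers, pCAF had 10 counts of Plvap, 7 of Kdr and 3 of Egfl7. The fibroblast sum of that table was higher in pCAF (63605 CPM) than in NMF (38377), where Cd200 was higher, and was 265 in sCAF. The part of these cell types in the Cd200 levels was not tested.

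The Cd200 window is chr16:45409004-45409303 on the minus strand, and holds no match to either motif.
Cd200: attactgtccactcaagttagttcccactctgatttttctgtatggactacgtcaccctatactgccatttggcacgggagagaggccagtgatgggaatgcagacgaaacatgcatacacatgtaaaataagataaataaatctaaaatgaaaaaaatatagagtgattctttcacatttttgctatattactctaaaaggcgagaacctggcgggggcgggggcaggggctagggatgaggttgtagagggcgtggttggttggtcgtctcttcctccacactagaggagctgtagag

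Nt5e, on the plus strand of chromosome 9 (88327197 to 88372092), encodes the last enzyme of the route from extracellular ATP to adenosine. It had 35 counts in NMF (28.4 CPM, 19.8 to 39.5), 9 in pCAF (22.4, 10.3 to 42.6) and 574 in sCAF (216, 199 to 235). The sCAF library stood alone, 7.61-fold above NMF (5.41 to 11.04) and 9.64-fold above pCAF (5.04 to 21.2), whereas pCAF and NMF did not differ beyond counting error (ratio 0.790, 0.334 to 1.68). Nt5e in the second table stood at 141 CPM in GFP- EpCAM- (122 to 164), 188 in GFP- EpCAM+ (167 to 210), 422 in GFP+ EpCAM- (394 to 451) and 319 in GFP+ EpCAM+ (297 to 342). The GFP+ libraries were above the GFP- libraries and every step in the order exceeded counting error. The GFP ratio was 2.98 (2.54 to 3.52) in EpCAM- cells, which was called, and 1.70 (1.49 to 1.94) in EpCAM+ cells, which was not, and the former was 1.76 times the latter (1.43 to 2.16).

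The Nt5e window is chr9:88327359-88327658 on the plus strand.
Nt5e: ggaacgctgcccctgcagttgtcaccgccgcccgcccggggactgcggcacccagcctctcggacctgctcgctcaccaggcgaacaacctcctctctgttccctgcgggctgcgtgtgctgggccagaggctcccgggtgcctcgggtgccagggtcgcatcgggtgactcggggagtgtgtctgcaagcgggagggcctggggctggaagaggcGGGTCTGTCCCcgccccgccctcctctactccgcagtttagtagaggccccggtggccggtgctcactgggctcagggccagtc

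Of the 8 genes, 6 had a promoter in the RefSeq table, and 6 motifs were searched on either strand in windows of 300 bases. The hypoxia core ACGTG was present in the Cd47 window at position -76, counted from 0 at the transcript start, and in that of Cd274, and in 19.6% of all 32851 windows. The loose NF-kB site was present in the windows of Nt5e (2 overlapping matches), Pdcd1lg2 and Cd276, and in 50.8% of all. TTCNNNGAA, the interferon-gamma activated site, and TGANTCA, the AP-1 site, were found in none of the 6, and in 8.30% and 7.81% of all. GGGCGG was present in the windows of Cd47, Cd274, Nt5e, Cd200 and Cd276 and in 35.7% of all, and CCAAT in that of Cd276 and in 37.4%. The Cd47 and Nt5e windows were 74.0% and 71.0% G or C and that of Cd200 45.0%. A match describes these letters only.

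Entpd1 and Entpd2, whose products act before CD73 by removing phosphates from ATP, had 1 count or fewer in sCAF and in both GFP+ libraries, where Nt5e was highest. Their relatives in the list did not all follow. Entpd3 had 16 counts in GFP+ EpCAM+, 11 in GFP- EpCAM+ and 0 in GFP+ EpCAM- and sCAF. Enpp1 had 15 counts in sCAF, 11 in GFP+ EpCAM+ and 2 in GFP+ EpCAM-, and Enpp3 had 1, 1 and 0. Adk, for the kinase that recycles adenosine, and Slc29a1 stood higher in both GFP+ than in both GFP- libraries, at 57.2 and 57.6 against 25.6 and 47.7 CPM and at 269 and 220 against 198 and 201, and neither was called for GFP. Entpd1 had 42 counts in GFP- EpCAM- (32.6 CPM), 2 in GFP- EpCAM+ and 0 in both GFP+ libraries. With the empty library set to 3 counts, it was 22.6-fold lower in GFP+ than in GFP- EpCAM- cells. Entpd2 stood at 392 CPM in NMF, 115 in pCAF and 0.377 in sCAF (1 count), and was 3.42-fold lower in pCAF (2.52 to 4.73) and 1041-fold lower in sCAF (186 to 41191) than in NMF. It was 59.8-fold lower in GFP+ than in GFP- EpCAM- cells (10.1 to 2426) and 31.9-fold lower in EpCAM+ cells (5.13 to 1319), on 1 count in each GFP+ library.

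The adenosine receptor genes Adora2a and Adora2b, and Ada, which encodes the deaminase that removes adenosine, were highest in the double-negative cells of the second table. Adora2b stood at 51.3 CPM in GFP- EpCAM-, 1.84 in GFP- EpCAM+, 2.88 in GFP+ EpCAM- and 2.82 in GFP+ EpCAM+, and was 17.8-fold lower in GFP+ than in GFP- EpCAM- cells (7.75 to 50.2). Adora2a, the receptor best known for quieting T cells, had 19, 1, 2 and 0 counts in the same order, and Ada stood at 43.5, 12.9, 11.1 and 10.1 CPM. In the first table Adora2b had 43 counts in NMF, 10 in pCAF and 1 in sCAF, 92.7-fold lower in sCAF than in NMF (15.8 to 3744).

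**Figure D4:**
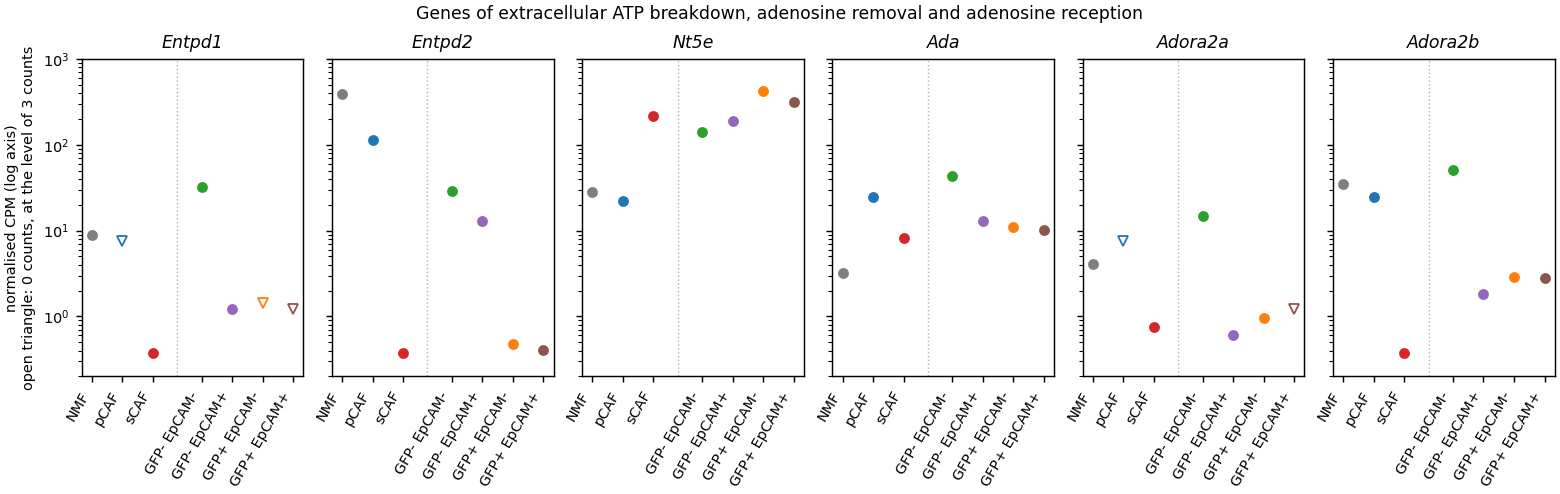
Normalised CPM (log axis) of genes before Nt5e (Entpd1, Entpd2), Nt5e itself, the adenosine-removing Ada and the receptors Adora2a and Adora2b in each library; open triangles are 0 counts drawn at the level of 3 counts. Nt5e is highest in sCAF, at 216 CPM, and in the GFP+ libraries, where Entpd1, Entpd2 and the receptor genes are at 2.88 CPM or less.

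Over the adenosine list of 16 genes, pCAF against NMF had 1 of 10 called higher and 3 lower (median -1.66, all genes -0.20), sCAF against NMF 0 of 11 higher and 6 lower (median -1.39, all genes 0.17) and pCAF against sCAF 2 of 7 higher and 1 lower (median -0.11, all genes -0.44). All genes gave 7.58%, 15.9% and 11.5% higher in these pairs as listed, and 7.91%, 17.3% and 11.2% lower. The ATP-releasing channel gene Panx1 was the one higher in pCAF than in NMF, 6.02-fold (3.65 to 10.2), and the nucleoside transporter gene Slc29a1 was 12.4-fold lower (6.86 to 25.0). EpCAM gave 0 of 6 called in GFP+ cells (median -0.21), against 0.736% higher and 0.396% lower of all genes. In GFP- cells EpCAM gave 1 higher and 6 lower of 11 (median -1.76), against 7.33% and 12.7% of all genes. GFP gave 1 higher and 2 lower of 9 in EpCAM+ cells (median -0.19), against 0.216% and 4.18% of all genes. In EpCAM- cells GFP gave 0 higher and 7 lower of 10 (median -2.70), against 5.55% and 14.1% of all genes. Among the 7 were Cd38, whose product splits NAD at the cell surface and can feed adenosine formation, 8.43-fold lower (4.72 to 16.2), Ada 3.94-fold (2.38 to 6.70), and both receptor genes. Within the second table, the endothelial and fibroblast sums given with Cd200 were highest in that same GFP- EpCAM- library. Sums of pericyte and smooth muscle (3116 CPM), adipocyte (2585, of which Fabp4 2577) and leukocyte markers (602) were also highest there. The part of these cell types in these differences was not tested.

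Likeness of pattern was measured as Pearson's r of log2(normalised CPM + 1), centred within each table, over the 7 libraries, among 5717 candidate genes in both tables. Among those most like Cd47 were Aplp2 (r = 0.991) and Hivep2 (0.987). For Cd24a they were Ephb6 (0.993), Usp34 (0.991) and Ints5 (0.990), and for Cd274 C2cd3 (0.997), Ppil1 (0.996) and Lta4h (0.996). For Pvr they were Ier3 (0.998), Ccdc9 (0.990) and Tpm3 (0.989), and for Cd276 Psmb3, Cenpn and Emc2 (0.997 each). Cd200 was most like G6pc3 (0.994), Pdlim4 (0.991) and Ccnl2 (0.991), and Nt5e most like Asap2 (0.998), Tnni2 (0.995) and Pip5k1c (0.995). With 7 points many genes come close: from 71 candidates for Cd47 to 430 for Nt5e had r over 0.9. The points share library depth and composition, and these values are descriptions.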

How the data were processed

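The authors deposited whole-number counts per gene symbol, not normalized, as the values show. STAR, HTSeq, cutadapt, bcl2fastq and DESeq2 and the build mm10 are named, per the submitters' processing notes. The sources used here do not give their roles and settings, strand handling, or whether reads were collapsed by molecular identifier. Names that spreadsheet software had turned into dates (27 and 21, up to 0.198% of a library's counts) were dropped.

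TMM scaling was done within each table (edgeR 4.0.16, R 4.3.3). For each of 7 library pairs, the ratio of scaled counts got an exact 95% interval from the binomial share of a gene's counts (Clopper-Pearson; scipy 1.17.1, Python 3.11.15). It was called when that interval was wholly past 2-fold, given 20 or more counts. An empty library was given 3 counts, so that its ratio rests on that setting and is not a limit of the 95% interval. List medians include such ratios. Ratios of ratios carry a Wald interval on counting error. Groups hold 1 library each, so samples were not tested against each other and p-values are not given. The steps were tested on simulated counts. Intervals cover counting error only, and amplification duplicates may remain.

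The members, lists and rules were chosen with earlier results of these data known. Named list genes are up to 4 called members per direction with the most counts, under the symbols of the files; levels of further list members and of markers were added after their values had been seen. Positions are from GENCODE vM21 (GRCm38, the assembly of mm10) and promoters from RefSeq (GRCm38.p6); proteins were not analysed here, and 1 gene of like pattern is not reported here. The alternatives were DESeq2 1.42.0 size factors, total counts, factors from the pair alone, dropping ribosomal protein genes, a minimum of 100 counts, no minimum, and a 4-fold threshold.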

Additional observations from a re-analysis of the deposited data

Results flagged for a closer look

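The GFP ratio of Cd24a ran in opposite directions on the 2 sides of the EpCAM sort, at 4.26 (95% counting interval 3.35 to 5.48) in EpCAM- cells and 0.752 (0.673 to 0.842) in EpCAM+ cells. The EpCAM ratio of Nt5e likewise ran in opposite directions, at 0.756 (0.686 to 0.833) in GFP+ cells and 1.33 (1.10 to 1.60) in GFP- cells. Each is 1 library against 1, so these differences between the 2 sides were not tested across samples, and only the 4.26-fold ratio lay beyond 2-fold with its whole interval.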

How the results depend on the processing

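No call among the 8 genes changed direction under the alternatives. Of ratios that met no call, 3 crossed 1: Pvr for GFP in EpCAM- cells with DESeq2 size factors (log2 0.039 to -0.019), and Cd274 with total counts for GFP in EpCAM- (-0.0056 to 0.12) and EpCAM+ cells (-0.10 to 0.027). Total counts, leaving out ribosomal protein genes and using no count filter left the outcome (called or not) of all 47 gene and pair combinations as it was, and so did a minimum of 100 counts for the 38 it tested. DESeq2 size factors ended the calls of Cd47 (log2 ratio -1.44) and Cd24a (-3.41) for pCAF against sCAF, leaving 2 of 4, and called Cd200 lower (-1.50) in GFP- EpCAM+ against GFP- EpCAM- cells, giving 2 in place of 1. Factors from the 2 compared libraries ended the Cd24a call for pCAF against sCAF (-3.46). The 4-fold rule left 0 of 2 calls for pCAF against NMF, 2 of 4 for sCAF against NMF, 2 of 4 for pCAF against sCAF, 1 of 3 for GFP in EpCAM- cells and 1 of 2 for GFP in EpCAM+ cells. At least 100 counts, which tests fewer genes, left 2 for pCAF against sCAF and 1 for GFP in EpCAM+ cells.

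Over all genes, the calls with at least 100 counts and with the 4-fold rule were 659 and 405 for pCAF against NMF (1259 in the main setting), 2000 and 1725 for sCAF against NMF (3256), and 1250 and 934 for pCAF against sCAF (2024). For EpCAM they were 54 and 28 in GFP+ cells (103) and 1070 and 916 in GFP- cells (1903), and for GFP 1047 and 1008 in EpCAM- cells (1876) and 133 and 236 in EpCAM+ cells (406), the last with 623 when no count filter was used. Total counts moved the share of higher calls for pCAF against NMF from 48.9% to 37.3%, and the all-gene median (log2) from -0.20 to -0.41.

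No library was left out, since each group has 1. No paired analysis was possible because no group shares 2 replicate numbers with another. In pCAF, the shallowest library, Cd274, Cd24a and Nt5e had 9 counts or fewer, which leaves wide intervals there.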
